A study of Homo sapiens with 14 samples.

Results

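HSPA5, HSP90B1, PDIA4, XBP1, DNAJB9, HERPUD1, SDF2L1, EDEM1 and CALR, genes of the unfolded protein response of the endoplasmic reticulum (ER), were followed together with ERO1L, an ER oxidase whose current symbol is ERO1A. They were chosen by name and are 10 of the 23106 gene symbols counted; each had a row in every library, and each passed the filter on low counts in every comparison. The study asked how hypoxia changes chromatin and transcription in cancer cell lines. Polyadenylated RNA was sequenced from PC3, a human prostate cancer line, and HCT116, a human colorectal cancer line, in normoxia (21% O2) or after 16 h of hypoxia (0.5% O2). PC3 had 4 biological replicates of each condition and HCT116 had 3. The labels give no genetic change for either line. PC3 was grown in DMEM/Ham's F12 and HCT116 in McCoy's 5a, so line, medium and library set cannot be told apart.

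Proteins that enter the ER are folded there by chaperones, and disulphide bonds are formed by protein disulphide isomerases that are re-oxidised by ERO1 enzymes, with molecular oxygen as the final acceptor of electrons. When unfolded proteins accumulate, the sensors IRE1, PERK and ATF6 are activated. XBP1, spliced by IRE1, and cleaved ATF6 then raise the transcription of chaperones and of genes that send misfolded proteins out of the ER for degradation. ERO1L is known separately as a gene induced by the hypoxia-inducible factors (HIF).

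The members differed in the promoter letters that are known for these pathways. Each gene was matched to RefSeq windows (GRCh38.p14) running from 250 bases before to 50 bases after the transcription start, and both strands were searched. The ER stress response element, ERSE, was taken as CCAAT, any 9 bases and CCACG. It was present in 27 of 35116 windows of the genome (0.0769%). ERSE-II, taken as ATTGG, any 1 base and CCACG, was present in 19 (0.0541%). All 10 genes were matched, with 12 windows, as PDIA4 and XBP1 have 2 each. ERSE was found in HSPA5, HSP90B1, XBP1 and CALR, and ERSE-II in HERPUD1 and SDF2L1. So 6 of the 9 genes besides ERO1L held one of them in at least 1 window, where 0.131% of all windows did. The letters are known for this response and the genes were chosen from it by name, so this is a description and no independent test. PDIA4, DNAJB9, EDEM1 and ERO1L held neither. The unfolded protein response element TGACGTGG was in 0.729% of windows and in none of the 10 genes, which says only that these letters were not in these windows. The sites are shown on the strand of the gene, 5′ to 3′, with 5 flanking bases on each side and the fixed letters in capitals. In HSP90B1 (the second site), CALR and SDF2L1 the element lies on the opposite strand, so it appears as its reverse complement.
HSPA5 ERSE, bases -66 to -48, chr9:125241386-125241414 (minus strand): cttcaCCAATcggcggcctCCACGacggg
HSP90B1 ERSE, bases -194 to -176, chr12:103930211-103930239 (plus strand): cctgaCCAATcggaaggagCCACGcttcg
HSP90B1 second ERSE, bases -89 to -71, chr12:103930316-103930344 (plus strand): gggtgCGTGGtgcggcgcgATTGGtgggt
CALR ERSE, bases -225 to -207, chr19:12938379-12938407 (plus strand): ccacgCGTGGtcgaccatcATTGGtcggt
XBP1 ERSE, bases -52 to -34, chr22:28800598-28800626 (minus strand): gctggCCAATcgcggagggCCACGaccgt
HERPUD1 ERSE-II, bases -117 to -107, chr16:56932020-56932040 (plus strand): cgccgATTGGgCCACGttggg
SDF2L1 ERSE-II, bases -188 to -178, chr22:21642109-21642129 (plus strand): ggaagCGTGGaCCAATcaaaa

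The core letters bound by HIF, ACGTG or GCGTG, were in 48.4% of all windows and in 9 of the 10 genes, HSPA5 being the exception. Such a core can overlap the last bases of an ERSE or ERSE-II. Both upstream cores of ERO1L are shown, since this was the gene with the largest hypoxic rise among the 10 in both lines. They lie on the opposite strand from the gene, so the capitals are the reverse complement of the core.
ERO1L HIF core, bases -170 to -166, chr14:52695719-52695733 (minus strand): agcctCACGCggcgg
ERO1L second HIF core, bases -114 to -110, chr14:52695663-52695677 (minus strand): cgcggCACGTccaca
A match of letters is a description of the sequence and was not tested as a binding site.

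**Figure D1:**
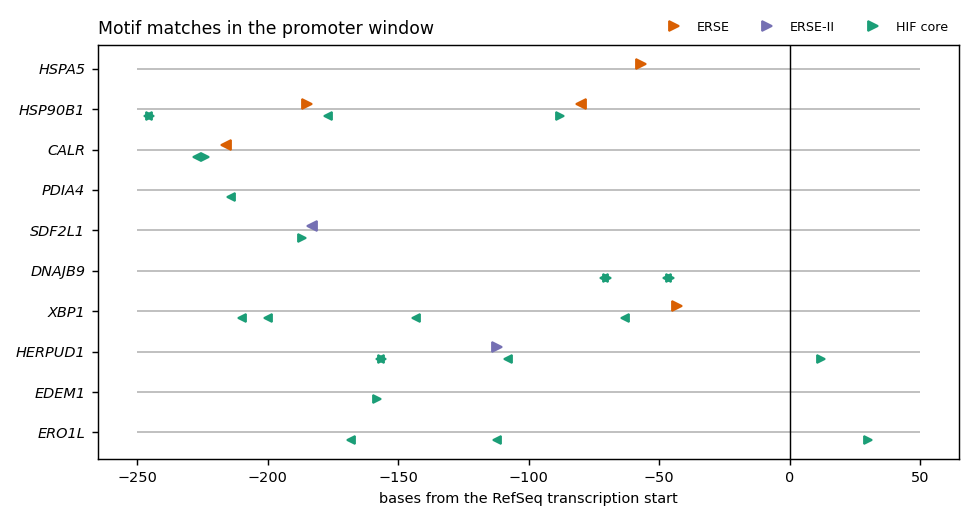
Positions of the motif matches in the first RefSeq promoter window of each gene. The horizontal axis gives bases from the transcription start, and arrowheads point right for a match on the strand of the gene and left for one on the opposite strand. ERSE or ERSE-II lies in 6 genes, and HIF cores lie in 9. A star or diamond shape marks 2 overlapping HIF cores on opposite strands; the second windows of PDIA4 and XBP1 are not drawn.

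The libraries held between 71228454 and 150630928 counts, with the hypoxic PC3 libraries the shallowest, and no pair of replicates agreed within counting error. The epithelial genes EPCAM, KRT8, KRT18 and CDH1 were expressed in every library. KLK3, a marker of prostate luminal cells, was at 0 CPM (counts of a gene scaled to a common library size) in every PC3 library. CDX2 was at 16.2 to 20.9 CPM in HCT116, while VIL1, CDH17 and LGALS4 were at or near 0. CTNNA1, known to be deleted in PC3, was at most 0.0587 CPM there. Of 7 markers of leukocytes, fibroblasts and endothelium, CD3E, DCN and COL1A2 were at or near 0 in both lines and VWF was at most 0.425 CPM. PTPRC reached 0.795 CPM and PECAM1 2.90 CPM in PC3, and both were at or near 0 in HCT116. COL1A1 lay between 5.97 and 12.4 CPM in the 2 lines. None of those that passed the filter on low counts was called between the conditions in either line, and their part in the differences between the lines was not tested. The 10 listed genes known to be induced by hypoxia were called higher in both lines, with median log2 fold changes of 1.52 in PC3 and 2.70 in HCT116. In bulk RNA of this kind, fewer cells of one kind and less RNA per cell cannot be told apart.

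ERO1L rose in both lines, and it was the member with the largest rise in each. The protein re-oxidises protein disulphide isomerase. The gene lies at chr14:53106633-53162618 on the minus strand (GRCh37) and an annotated gene on the opposite strand overlaps its exons. Levels are given as CPM after TMM scaling over all 14 libraries. In PC3, ERO1L stood at 781, 541, 567 and 539.9 CPM in normoxic replicates 1 to 4 and at 1216, 885, 886 and 859 CPM in hypoxia. Every hypoxic library lay above every normoxic one, with replicate 1 high in both conditions. The log2 fold change was 0.67 ± 0.16 (SE, n = 4 per condition; 1.59-fold; edgeR quasi-likelihood test, Benjamini-Hochberg adjusted p = 0.0305). Within replicate numbers the rise was 0.64 to 0.71 on the log2 scale, and it was present in 4 of 4. The adjusted p was 0.0993, 0.102 and 0.0846 without normoxic replicate 2, 3 and 4, and 0.0615 without hypoxic replicate 2. These fits did not pair the libraries. With the replicate number as a block the log2 fold change was 0.67 ± 0.05 (adjusted p = 0.00034), in a fit that called 28.5% of all genes.

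In HCT116, ERO1L stood at 85.9, 86.9 and 80.1 CPM in normoxia and at 144, 160.1 and 141 CPM in hypoxia. The groups did not overlap. The log2 fold change was 0.83 ± 0.07 (n = 3 per condition; 1.78-fold; adjusted p = 1.39e-05). The difference between the 2 responses, PC3 minus HCT116, was -0.15 on the log2 scale with a 95% interval from -0.57 to 0.27 (interaction of line and oxygen, edgeR adjusted p = 0.778). The test does not show that the 2 responses were alike.

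EDEM1 moved in opposite directions in the 2 lines. It encodes an ER protein that directs misfolded glycoproteins to degradation, and lies at chr3:5229331-5261643 on the plus strand (GRCh37), where a gene on the opposite strand overlaps its exons. PC3 held 84.0, 82.7, 79.9 and 93.5 CPM in normoxia and 97.3, 113, 106 and 113 CPM in hypoxia. The lowest hypoxic library lay just above the highest normoxic one. The log2 fold change was 0.34 ± 0.07 (adjusted p = 0.017), and the level was higher in hypoxia within 4 of 4 replicate numbers. Without normoxic replicate 2 or 3, or hypoxic replicate 2, the adjusted p became 0.0695, 0.0706 and 0.0611, and with scaling by total counts it was 0.0526. Blocking by replicate number gave 0.34 ± 0.05 in PC3 (adjusted p = 0.00535, and 0.0525 without both libraries of replicate 2). In HCT116 the gene was far lower, at 9.09, 10.0 and 10.3 CPM in normoxia and 6.74, 7.496 and 8.35 CPM in hypoxia. These groups did not overlap either, and the log2 fold change was -0.37 ± 0.10 (adjusted p = 0.0175; 0.0575 without hypoxic replicate 1). The responses differed by 0.72 ± 0.12 on the log2 scale (95% interval 0.46 to 0.98, adjusted p = 0.00613).

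ERO1L and EDEM1 were the 2 of 10 members past the threshold of an adjusted p of 0.05 in PC3, where 11.3% of all 14309 genes tested were called, 6.03% higher and 5.29% lower. They were also the 2 of 10 without overlap between conditions, against 20.9% of all genes. In HCT116, 6 of 10 were called, 5 higher and 1 lower, where 25.9% of 14120 genes were called, 14.6% higher and 11.3% lower. There 7 of 10 did not overlap, against 42.5% of all genes. The median log2 fold change of the members was 0.12 in PC3 and 0.21 in HCT116, and without ERO1L it was 0.08 and 0.21, while the medians of all genes tested were at 0.00 in both lines.

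**Figure D2:**
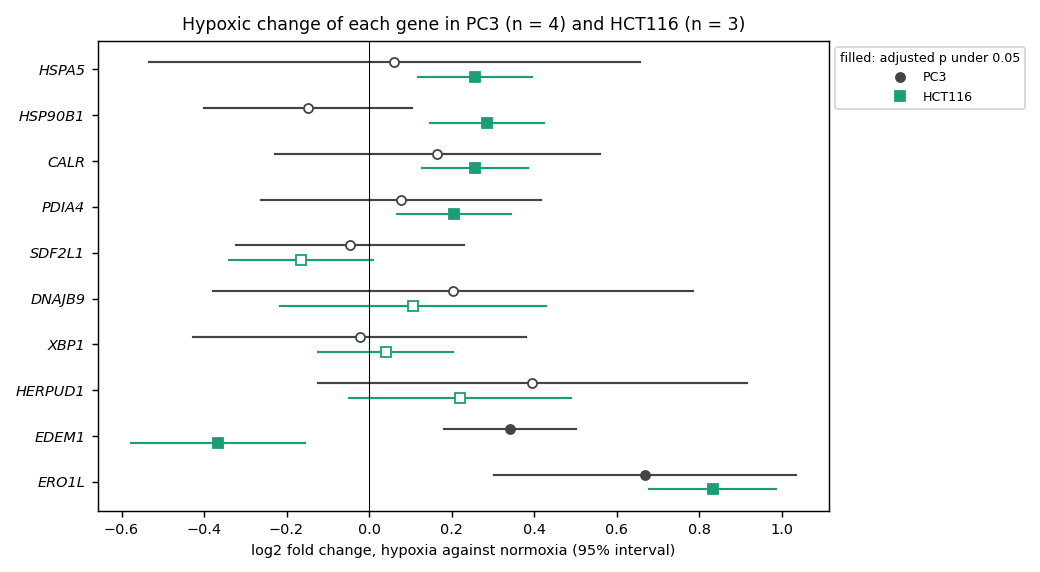
Log2 fold change of hypoxia against normoxia for the 10 genes (horizontal axis) in PC3 (circles) and HCT116 (squares), with 95% intervals. Filled symbols have an adjusted p under 0.05. ERO1L lies right of 0 in both lines, EDEM1 on opposite sides, and the intervals of the chaperones are wider in PC3 than in HCT116.

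The abundant chaperones rose in HCT116 by 15.3% to 21.9%. HSPA5 encodes BiP, the ER member of the HSP70 family and the chaperone that holds the stress sensors inactive (chr9:127997132-128003661, minus strand). It stood at 1136, 1175 and 1198 CPM in normoxia and 1346, 1436 and 1365 CPM in hypoxia. The groups were clearly apart, and the log2 fold change was 0.26 ± 0.06 (adjusted p = 0.012). HSP90B1 encodes GRP94, the ER member of the HSP90 family (chr12:104323885-104347709, plus strand). Its normoxic libraries held 1221, 1230.35 and 1167 CPM and its hypoxic ones 1377, 1528 and 1457 CPM. It rose by 0.29 ± 0.06 (adjusted p = 0.00754) with no overlap. Its exons overlap TTC41P and UQCC6 on the opposite strand, and its pseudogene HSP90B2P was counted at no more than 2.65 CPM in any library.

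CALR encodes calreticulin, a calcium-binding lectin chaperone (chr19:13049392-13055303, plus strand; a gene on the opposite strand overlaps its exons). In HCT116 it stood at 1372, 1341 and 1345 CPM in normoxia and at 1580.4, 1622 and 1590.1 CPM in hypoxia. The log2 fold change was 0.26 ± 0.06 (adjusted p = 0.00852), again with the groups apart. PDIA4, a disulphide isomerase (chr7:148700154-148725754, minus strand), stood at 414, 412 and 415 CPM in normoxia and 441, 489.8 and 485 CPM in hypoxia. It rose by 0.21 ± 0.06 (adjusted p = 0.0339), and the lowest hypoxic library was above all normoxic ones. These calls were sensitive to the setting. For HSPA5, CALR and PDIA4 the adjusted p was 0.0705, 0.067 and 0.248 with total-count scaling, 0.584, 0.384 and 0.45 in 1 fit over both lines, and 0.0556, 0.0557 and 0.134 without normoxic replicate 2. That of HSP90B1 was 0.0456, 0.138 and 0.032. HSPA5 also lost its call without normoxic replicate 1 (adjusted p = 0.057), and PDIA4 without normoxic replicate 1 or hypoxic replicate 2 or 3 (0.107, 0.108 and 0.0813). The direction was upwards for all 4 genes in each of the 14 alternatives.

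The same chaperones did not pass the test in PC3, where replicates differed more, nor did they with the replicate number as a block. HSPA5 stood at 662, 400.0, 387 and 674 CPM in normoxic replicates 1 to 4 and at 652, 402, 398 and 752 CPM in hypoxia. Replicates 1 and 4 were high and replicates 2 and 3 low in both conditions, so the groups overlapped almost completely. The log2 fold change was 0.06 ± 0.27, with a 95% interval from -0.53 to 0.66 (adjusted p = 0.909). With the replicate number as a block it was 0.05 ± 0.05 (adjusted p = 0.489), and the difference of responses was -0.19 ± 0.09 (adjusted p = 0.191, and 0.031 without both libraries of replicate 4). CALR stood at 1559, 1186, 1211 and 1632 CPM in normoxia and 1641, 1260.2, 1293 and 2051 CPM in hypoxia, again with replicates 1 and 4 high. It was higher in hypoxia within 4 of 4 replicate numbers, by 0.07 to 0.33 on the log2 scale. Its log2 fold change was 0.17 ± 0.18 (adjusted p = 0.585). With the block it was 0.15 ± 0.06 (adjusted p = 0.118, and 0.0193 without both libraries of replicate 4). PDIA4 stood at 309, 274, 275 and 372 CPM and at 311, 272, 288 and 423 CPM, with a log2 fold change of 0.08 ± 0.15 (adjusted p = 0.78). With the block this was 0.07 ± 0.05 (adjusted p = 0.381). The 2 conditions overlapped for both genes.

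Among HSPA5, HSP90B1, CALR and PDIA4, only HSP90B1 had a negative estimate in PC3. Of 30 chaperones and folding enzymes tested there, members included, 7 were negative. It stood at 709.6, 619.5, 635 and 863 CPM in normoxia and 652, 578, 621 and 689 CPM in hypoxia. Each hypoxic library was below the normoxic library of its number, but the groups overlapped, and the log2 fold change was -0.15 ± 0.11 (adjusted p = 0.435). Blocked by replicate number within PC3, it was -0.14 ± 0.06 (adjusted p = 0.123, and 0.048 without both libraries of replicate 4). The responses of the lines differed by -0.42 ± 0.15 (95% interval -0.74 to -0.11, unadjusted p = 0.0121, adjusted p = 0.16), which did not pass the threshold. The PC3 numbers were read as pairs. With the replicate number as a block the difference was -0.41 (adjusted p = 0.0229, and between 0.00516 and 0.323 over all alternatives). That fit also blocks by the HCT116 numbers, which were not read as pairs. In it 2 of the 10 members rather than 1 differed between the lines, and 8.44% of all genes were called. In the unblocked fit the one member was EDEM1, where 2.32% of 15493 genes were called, 1.01% with the larger response in PC3 and 1.31% in HCT116. For HSPA5, CALR and PDIA4 the differences of responses were -0.19, -0.08 and -0.12, and their intervals included 0.

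**Figure D3:**
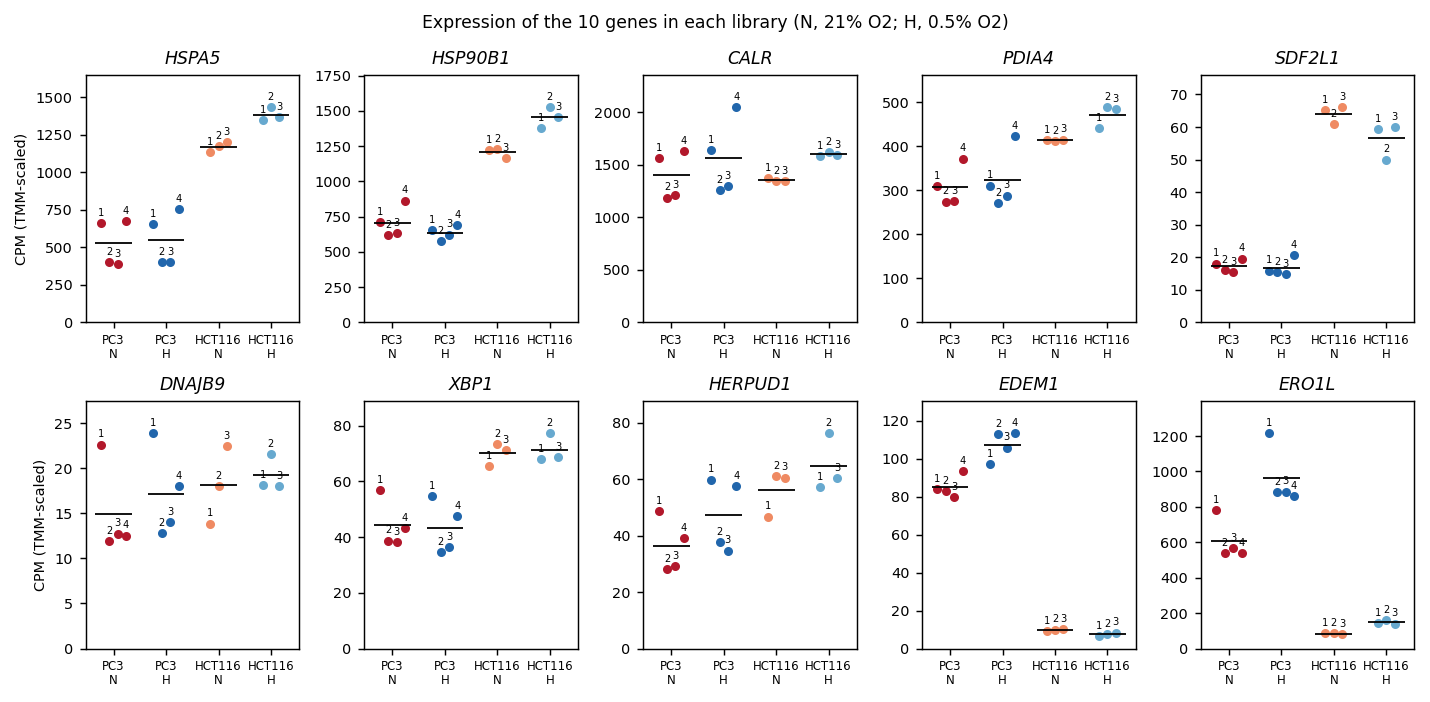
CPM of each of the 10 genes (vertical axes from 0, each with its own scale) in PC3 and HCT116 libraries in normoxia (N) and hypoxia (H). Numbers are replicate numbers and bars are group means. HSPA5 replicates 1 and 4 stand at 652 to 752 CPM and replicates 2 and 3 at 387 to 402 CPM in PC3, whatever the oxygen, whereas HCT116 replicates lie close together.

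None of the remaining genes was called in the unblocked fit of either line with TMM scaling. HERPUD1, a membrane protein of the ER degradation complex (chr16:56966054-56978776, plus strand), stood at 48.6, 28.2, 29.1 and 39.0 CPM in normoxic PC3 and at 59.8, 37.7, 34.7 and 57.7 CPM in hypoxic PC3. Each hypoxic library was above its normoxic partner, by 0.25 to 0.56 on the log2 scale, while the groups overlapped. The log2 fold change was 0.40 ± 0.23 (adjusted p = 0.303). With the replicate number as a block it was 0.39 ± 0.06 (adjusted p = 0.00569, and between 2.11e-05 and 0.541 over all alternatives), in a fit that called 28.5% of all genes. In HCT116, HERPUD1 stood at 46.7, 60.9 and 60.5 CPM in normoxia and 57.2, 76.3 and 60.3 CPM in hypoxia, which overlapped (log2 fold change 0.22 ± 0.12, adjusted p = 0.211).

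XBP1, the transcription factor of the IRE1 branch (chr22:29190543-29196585, minus strand), had log2 fold changes of -0.02 ± 0.18 in PC3 and 0.04 ± 0.07 in HCT116 (adjusted p = 0.952 and 0.729). Gene counts do not separate its spliced form from the unspliced one. It lay between 34.6 and 56.7 CPM in PC3 and between 65.5 and 77.3 CPM in HCT116, with the conditions overlapping in both. DNAJB9, a co-chaperone of BiP (chr7:108210311-108215294, plus strand), lay between 11.95 and 23.9 CPM in PC3 and between 13.8 and 22.4 CPM in HCT116. In PC3 it was higher in hypoxia within 4 of 4 replicate numbers. Its log2 fold changes were 0.20 ± 0.26 and 0.11 ± 0.15 (adjusted p = 0.654 and 0.629). With the replicate number as a block the PC3 value was 0.21 ± 0.09 (adjusted p = 0.11). SDF2L1, a partner of ER co-chaperones (chr22:21996591-21998588, plus strand), lay between 14.7 and 20.7 CPM in PC3, with a log2 fold change of -0.05 ± 0.12 (adjusted p = 0.844). In HCT116 its normoxic libraries held 65.2, 60.8 and 66.2 CPM and its hypoxic ones 59.5, 50.01 and 60.1 CPM. Every hypoxic library was below every normoxic one, yet the log2 fold change of -0.16 ± 0.08 was not called (adjusted p = 0.152; 0.0264 with total-count scaling).

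The levels of most of these genes differed between the lines, as did those of most genes tested. In normoxia, 8 of 10 members differed between PC3 and HCT116, where 81.3% of all genes did, 42.4% higher in PC3 and 38.9% lower. The libraries of the 2 lines did not overlap for 7 of the 10, against 82.4% of all genes. EDEM1 was 8.68-fold higher in PC3 (log2 difference 3.12 ± 0.10, adjusted p = 2.13e-13) and ERO1L 7.20-fold higher (2.85 ± 0.15, adjusted p = 1.27e-10). The other 6 were lower in PC3. SDF2L1 differed by -1.89 ± 0.12 (adjusted p = 5.47e-10) and HSPA5 by -1.14 ± 0.23 (adjusted p = 0.000273). HSP90B1, XBP1, HERPUD1 and PDIA4 differed by -0.77, -0.66, -0.63 and -0.43, HERPUD1 with overlapping libraries. CALR differed by 0.05 ± 0.15 (adjusted p = 0.785). DNAJB9 differed by -0.27 ± 0.24 (adjusted p = 0.304, and between 0.00288 and 0.765 over all alternatives, blocked fits included). With the replicate number as a block the difference was -0.30 (adjusted p = 0.0279). The block takes out the spread between replicate cultures, against which a difference between lines has to be judged. That adjusted p therefore cannot decide whether the lines differed. Without PC3 normoxic replicate 1 and with no block, DNAJB9 differed by -0.54 (adjusted p = 0.0233).

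The order of the levels was compared as CPM per kilobase of transcript. In normoxic PC3, CALR was highest at 735 ± 122 (SD, n = 4), followed by HSP90B1 at 254 ± 39.9. HSPA5, ERO1L and PDIA4 came next at 135, 118 and 111 and did not differ beyond their spread. XBP1 and SDF2L1 overlapped at 24.7 and 21.0, as did EDEM1 and HERPUD1 at 13.9 and 12.7, and DNAJB9 was lowest at 6.21. In normoxic HCT116, CALR, HSP90B1, HSPA5 and PDIA4 led in separate steps, at 711, 434, 298 and 149.6 (n = 3). They were followed by SDF2L1 at 77.7, XBP1 at 39.1, HERPUD1 at 19.6, ERO1L at 16.4, DNAJB9 at 7.51 and EDEM1 at 1.60. Of these only HERPUD1 and ERO1L overlapped. In hypoxia ERO1L moved up by 1 place in each line, to 187 in PC3, where it overlapped HSP90B1 above and HSPA5 below, and to 28.9 in HCT116.

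Replicates of PC3 differed in most of the chaperone genes together. Among the 9 genes besides ERO1L, 8 were above the group mean in normoxic replicate 1 and 7 in normoxic replicate 4, against 0 in normoxic replicates 2 and 3. The hypoxic libraries followed the same numbers, with 6, 1, 0 and 9 above the mean in replicates 1 to 4. The coefficient of variation of HSPA5 was 29.9% in normoxic and 32.5% in hypoxic PC3, where the median of all genes at 1 CPM or more was 7.76% and 11.5%. In HCT116 it was 2.68% and 3.42%, below the medians of 5.74% and 6.46%. Over the 8 PC3 libraries, with group means removed, the deviations of HSPA5 correlated with those of CALR at 0.97 (Spearman 0.88), HERPUD1 at 0.95 (0.71), SDF2L1 at 0.86 (1.00) and EDEM1 at 0.27 (0.55), and with those of ERO1L at 0.42 (-0.26). These are descriptions, as the libraries share lines and replicate numbers. In PC3 the deviations of ERO1L correlated with those of DNAJB9 at 0.91 (Spearman 0.62) and EDEM1 at -0.55 (-0.57), with 6 of 9 positive. In HCT116 the median deviation of the 9 genes lay between -0.08 and 0.06 on the log2 scale in every library. Deviations also went together there: HSPA5 correlated with HERPUD1 at 0.96, XBP1 at 0.92 and SDF2L1 at -0.69. Its correlations with the other 8 were positive for 7, with a median of 0.51, against 8 and 0.85 in PC3.

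**Figure D4:**
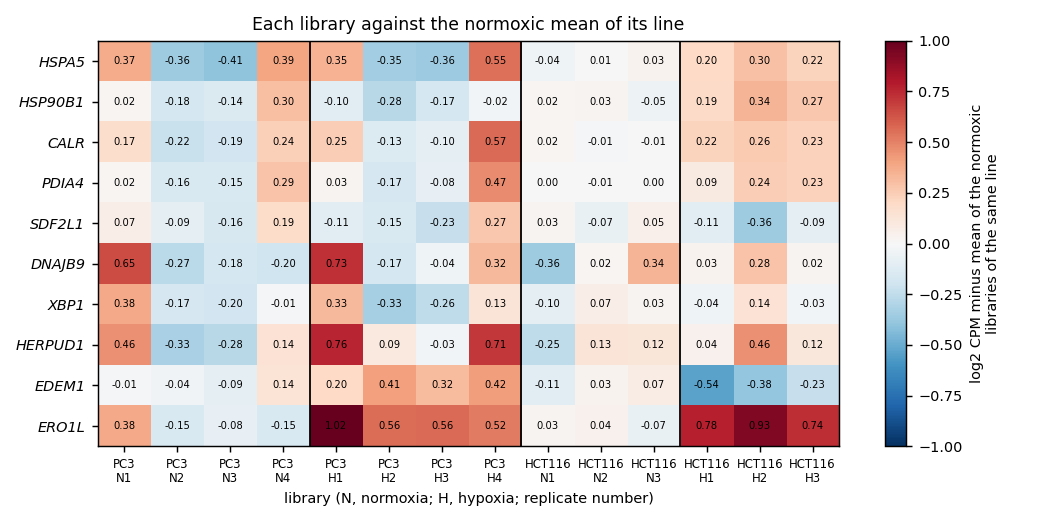
Log2 CPM of each gene (rows) in each library (columns) minus the mean of the normoxic libraries of the same line, from -1 (blue) to 1 (red). In PC3 the columns of replicates 2 and 3 are blue for most genes in both conditions. The ERO1L row is red in every hypoxic library of both lines, and the EDEM1 row is red in hypoxic PC3 and blue in hypoxic HCT116.

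Likeness of pattern was measured as the mean of the 2 within-line Pearson correlations of log2 CPM, over 8 PC3 and 6 HCT116 libraries and 11199 genes. The genes most like ERO1L were STBD1, ADM, FEM1C, EGLN3 and RASSF7, at 0.98 to 0.99. Among the other members the nearest to ERO1L was CALR, at rank 1287 with 0.68. Its correlation with ERO1L was 0.36 in PC3 and 0.99 in HCT116. The genes most like HSPA5 were MVD at 0.97, CALR at 0.95, CITED4, FDPS and MSMO1, with PDIA4 at rank 19 (0.89) and HSP90B1 at rank 79 (0.82).

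Other genes of ER folding and stress were taken from 6 lists of the pathway, which held 93 genes besides the members, of which 90 were tested. In PC3, 3 were higher and 1 was lower, or 4.44% against 11.3% of all genes, and their median log2 fold change was 0.10. With the replicate number as a block these counts became 13 and 4, in a fit that called 28.5% of all genes. DESeq2 called 7 higher, and 18.2% of all genes in either direction. Leaving out normoxic replicate 2, 3 or 4 or hypoxic replicate 2 gave 1 higher, and leaving out hypoxic replicate 4 gave 5. Of all genes, these fits called 3.99%, 3.83%, 6.31%, 5.04% and 14.4%, in that order. None was lower when any of normoxic replicates 1 to 4 or hypoxic replicates 2 and 3 was left out. In HCT116, 20 were higher and 8 lower, or 31.1% against 25.9% of all genes, with a median of 0.04. With total-count scaling this split became 6 higher and 20 lower, in a fit with 1286 of all genes higher and 3146 lower. The number higher was 9, 8 and 10 without normoxic replicate 1, normoxic replicate 2 and hypoxic replicate 2. Those fits called 19.7%, 17.9% and 18.1% of all genes. The number lower was 5 without normoxic or hypoxic replicate 1 and 2 without normoxic replicate 2 or hypoxic replicate 3.

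Thiol oxidation, the pathway of ERO1L, held the largest change past the threshold of these lists in each line. Of 8 genes besides ERO1L, 2 were higher and 1 lower in PC3, and 3 were higher and 2 lower in HCT116. That is 37.5% and 62.5% of the list, beside 11.3% and 25.9% of all genes. QSOX1, a sulphydryl oxidase of the secretory pathway, lay between 268 and 358 CPM in normoxic PC3 and between 378 and 479.6 CPM in hypoxic PC3. In HCT116 it stood at 70.5, 66.1 and 61.1 CPM in normoxia and at 160.4, 174 and 166 CPM in hypoxia. The conditions did not overlap in either line, and the log2 fold changes were 0.52 ± 0.12 in PC3 and 1.36 ± 0.07 in HCT116 (adjusted p = 0.0253 and 1.64e-07). The difference of its responses was -0.83 ± 0.15 (adjusted p = 0.00896), and it was the 1 of the 90 genes past the threshold in that test. That is 1.11%, beside 2.32% of all genes. VKORC1, the vitamin K epoxide reductase, rose by 0.47 ± 0.12 and 0.82 ± 0.06 (adjusted p = 0.0416 and 6.23e-06). P4HB, the main protein disulphide isomerase, rose in HCT116 from 1252 ± 33.6 to 1932 ± 89.5 CPM (SD, n = 3; log2 fold change 0.64 ± 0.06, adjusted p = 4.26e-05). In PC3 its log2 fold change was 0.37 ± 0.105, which was not called (adjusted p = 0.0533), though the conditions did not overlap. ERO1LB, the paralogue of ERO1L now named ERO1B, fell in PC3 from 2.96 to 4.12 CPM in normoxia to 1.56 to 2.59 CPM in hypoxia (-0.73 ± 0.19, adjusted p = 0.0351). Its log2 fold change in HCT116 was -0.22 ± 0.12 (adjusted p = 0.193). GPX8, a peroxidase of the ER, fell in HCT116 by 0.46 on the log2 scale (adjusted p = 0.00305).

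Among 24 other chaperones and folding enzymes, P4HB included, 8 were higher and 3 lower in HCT116, or 45.8% beside 25.9% of all genes. PDIA5 rose by 0.29 ± 0.06 (adjusted p = 0.0061), while DNAJC10, an ER reductase, and FKBP14, a prolyl isomerase, each fell by 0.29 (adjusted p = 0.00447 and 0.0492). In PC3 edgeR called 0 of the 24, beside 11.3% of all genes, with 2 at an unadjusted p under 0.05 and 1 called by DESeq2. Of 21 genes of translocation and transport, 5 were higher and 1 lower in HCT116, and 1 was higher in PC3. That is 28.6% and 4.76% of the list, beside 25.9% and 11.3% of all genes. SEC61G, a subunit of the translocation channel, rose by 0.53 ± 0.09 in PC3 and 0.37 ± 0.12 in HCT116 (adjusted p = 0.00764 and 0.0343). LMAN1, a cargo receptor between ER and Golgi, rose by 0.35 ± 0.06 in HCT116 (adjusted p = 0.00254), SSR2 by 0.27 and KDELR3, a receptor that retrieves ER proteins, by 0.25.

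The degradation genes and the stress sensors were read in the same way. Of 19 other degradation genes, 2 were higher and 1 lower in HCT116, or 15.8% beside 25.9% of all genes. OS9, a lectin that recognises misfolded glycoproteins, was at 0.27 ± 0.07 (adjusted p = 0.0128). DERL1 rose by 0.25 and EDEM3, a relative of EDEM1, fell by 0.22 on the log2 scale. Of 11 other sensors and factors, MBTPS1, the protease that cleaves ATF6, rose by 0.26 and WFS1 fell by 0.24 in HCT116. They were 18.2% of the list, beside 25.9% of all genes. In the PERK branch, 2 of 8 genes were higher in HCT116, ATF3 by 0.42 ± 0.13 and PPP1R15A by 0.20 ± 0.07 (adjusted p = 0.0326 and 0.0499). That is 25.0% of the list, beside 25.9% of all genes. The other 6 were not called, and 5 of the 8 had negative values, with a list median of -0.14 and a lowest value of -0.63 for CHAC1 (adjusted p = 0.147). In PC3 edgeR called 0 of 19 degradation genes, 0 of 11 sensors and 0 of 8 PERK branch genes, beside 11.3% of all genes. At an unadjusted p under 0.05 these numbers were 1, 2 and 1, and by DESeq2 they were 0, 0 and 1.

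**Figure D5:**
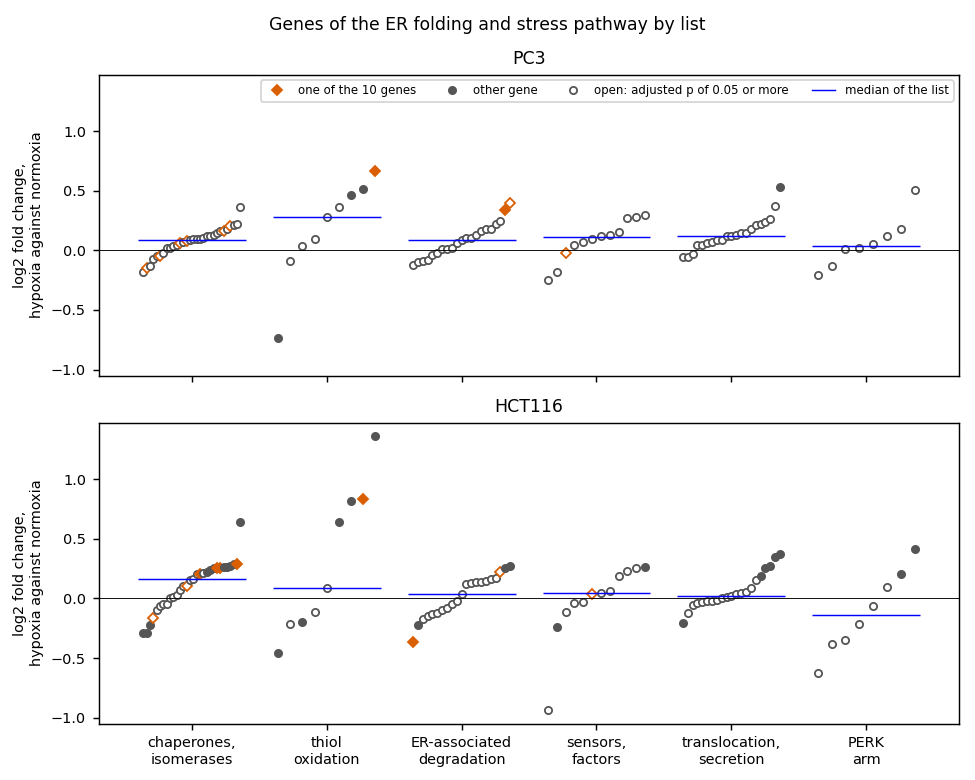
Log2 fold change of hypoxia against normoxia (vertical axes) for each gene of 6 lists in PC3 and HCT116. Diamonds are genes of the 10, circles are other genes, filled symbols have an adjusted p under 0.05 and lines are list medians. The thiol oxidation list holds QSOX1 at 1.36 in HCT116, the highest point, and ERO1L at 0.67 and 0.83 in the 2 lines.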

How the data were processed

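The authors removed reads that HISAT2 (2.05) placed on the ERCC spike-ins, aligned the rest to GRCh37, and counted them on RefSeq genes with HTSeq (0.5.4p3, intersection-strict). The deposited values are raw counts per gene, 1 set for each of the 14 libraries. The RefSeq release and the strand setting are not given in the sources used here, so overlapping genes are uncertain. ERCC reads were not used here, and scaling assumes that most genes do not change.

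edgeR (4.0.16, R 4.3.3) was run on all genes: filterByExpr, TMM, quasi-likelihood test, Benjamini-Hochberg adjustment, threshold 0.05, two-sided. Standard errors were obtained as the absolute value of the unshrunk coefficient over the root of the F statistic. Each line had its own fit, and the interaction and the difference at normoxia used all 14 libraries. The tests were checked on simulated data. Log2 CPM used a prior count of 2. Transcript lengths and exon overlaps came from GENCODE on GRCh37, and promoters from RefSeq.

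The members and lists were chosen with earlier results of these data known. Besides the members, the 4 largest changes past the threshold of each list and line were named, with at least 1 CPM and no overlap, as were the 5 genes most like ERO1L and HSPA5. QSOX1 was also read in the interaction.

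Replicate numbers were read as pairs in PC3. Over genes, the deviations of normoxic and hypoxic libraries of one number gave r = 0.69, 0.28, 0.15 and 0.29 in numerical order. Libraries of different numbers gave -0.43 to 0.21, with 0.1434 for normoxic replicate 2 and hypoxic replicate 3. In HCT116 the r of one number were 0.09, 0.16 and 0.03, against -0.11 to 0.01 for different numbers. In both lines each normoxic library correlated most with the hypoxic library of its number. These r do not clearly separate the lines. Even so, the HCT116 numbers were not read as pairs. The replicate block still used them wherever HCT116 libraries were in the fit. Alternatives were DESeq2 (1.42.0), other scalings and filters, 1 fit over both lines, the replicate block and each library left out. Leaving out both PC3 libraries of a number was added after seeing the data.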

Additional observations from a re-analysis of the deposited data

Results flagged for a closer look

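In PC3, replicate 1 stood apart from the other 3 libraries of its group in 3 of 20 sets of 4 values, where chance would give about 1. ERO1L was at 781 CPM in normoxic replicate 1 against 539.9 to 567 CPM in the others, and at 1216 CPM in hypoxic replicate 1 against 859 to 886 CPM. DNAJB9 was at 22.6 CPM in normoxic replicate 1 against 11.95 to 12.7 CPM. Without both libraries of replicate 1, the log2 fold change of ERO1L in PC3 was 0.68 ± 0.06 (edgeR adjusted p = 0.00107) and that of DNAJB9 was 0.27 ± 0.13 (adjusted p = 0.197).

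EDEM1 was flagged because its responses to hypoxia differed between the lines, by 0.72 on the log2 scale, PC3 minus HCT116 (interaction, edgeR adjusted p = 0.00613). The adjusted p lay between 2.4e-06 and 0.0239 over the 26 alternatives run. EDEM1 was at most 10.3 CPM in HCT116.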

How the results depend on the processing

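Members past the threshold in PC3 numbered 2, and 1 with total-count scaling, 3 with the replicate block and 0 to 5 with libraries left out. The range for the block without a pair was 1 (without replicate 2) to 5 (without replicate 4). ERO1L passed in each of those 4 fits, and EDEM1 in 3 (adjusted p = 0.0525 without replicate 2). In HCT116, 6 members became 2 in 1 fit over both lines, 5 with the replicate block, where PDIA4 had an adjusted p of 0.057, and 3 to 6 with a library left out. Members with different responses numbered 1, and 2 with the block and 1 to 3 with libraries left out. Pathway genes higher in PC3 numbered 3, and 7 with DESeq2, 13 with the block, 9 in 1 fit and 1 to 33 with libraries left out. Those lower numbered 1, and 3 with total-count scaling, 4 with the block and 0 to 10 with libraries left out. In HCT116, 20 higher became 6 with total-count scaling, 7 in 1 fit and 8 to 19 with a library left out, and 8 lower became 20, 2 and 2 to 6. Over all genes the block called 28.5% in PC3, and 49.2% without both libraries of replicate 4. DESeq2 called 18.2% there. The 1 fit over both lines called 15.9% in PC3 and 11.2% in HCT116. Total-count scaling called 562 genes higher and 1733 lower in PC3, and 1286 and 3146 in HCT116. With libraries left out the share ran from 3.83% to 49.2% in PC3 and from 17.9% to 23.4% in HCT116. The cause of these moves was not tested.

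Signs turned only for changes and differences that were not called. With total-count scaling, which moves the median of all genes to -0.10 in PC3 and -0.09 in HCT116, HSPA5 and PDIA4 became -0.053 and -0.035 in PC3 and XBP1 became -0.052 in HCT116. With upper-quartile scaling, CALR at normoxia became -0.0145. With libraries left out, log2 fold changes in PC3 ran from -0.12 to 0.20 for HSPA5, -0.073 to 0.18 for PDIA4, -0.16 to 0.13 for XBP1 (0.0172 with the block without replicate 2), -0.0099 to 0.49 for DNAJB9 and -0.16 to 0.0239 for SDF2L1. In HCT116 they ran from -0.0224 to 0.0749 for XBP1 and -0.0661 to 0.29 for DNAJB9. Differences of responses ran from -0.18 to 0.0909 for XBP1, -0.096 to 0.38 for DNAJB9 (-0.02 with the block without replicate 4) and -0.24 to 0.0093 for CALR. CALR at normoxia ran from -0.0351 to 0.12, and was -0.0076 without both libraries of PC3 replicate 1 and -0.0223 and -0.0578 with the block without replicate 1 and 4. In HCT116, where libraries of one number deviated together at r = 0.09, 0.16 and 0.03, the numbers were not read as pairs. The replicate block nevertheless used them. The replicate block changed no other call of a member than those of HERPUD1, HSP90B1, DNAJB9 and PDIA4. That of DNAJB9 is a difference between lines, for which the blocked adjusted p cannot be used. Replicates of one line measure the spread of cultures of that line, and 3 or 4 per condition limit what small changes could be called.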
